A study of Mus musculus with 6 samples.

Results

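Floating cells of cultured fetal mouse lung were compared, gene by gene and day by day, with the attached cells of the same day. All 6 libraries of the series entered the comparison: 3 from suspension cells and 3 from adherent cells, with 1 library of each fraction on days 4, 5 and 6 of culture. A gene was said to keep 1 direction when its level was higher in suspension than in adherent cells on all 3 days, or lower on all 3. Of 22019 genes with any count, 14912 had enough counts to be tested, and 11771 of these (78.9%) kept 1 direction. Both fractions came from the lungs of C57BL6 fetuses at E17, which had been digested with liberase, frozen, and plated on diluted Matrigel, a basement membrane extract. The medium for haematopoietic stem and progenitor cells (HSPC media) contained mTPO, IL6, SCF, FGF, VEGF and Flt3, and it was renewed after a wash on day 3. Suspension cells were collected from the medium, whereas the adherent layer was detached with accutase and sorted for live cells with VE-cadherin on their surface. The fractions therefore differ in handling and sorting as well as in attachment, and these cannot be told apart here. The libraries were made with 10x 3' v3 chemistry, which reads transcript ends, and the deposited tables give each library as a whole, with no axis of single cells. Whether each day had cultures of its own is not stated in the labels, so every p-value measures only the spread between these libraries.

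As background, attached cells read their neighbours and the matrix through guidance receptors such as Eph receptors, plexins and Robo proteins. When they are spread on a firm surface, the co-activators YAP and TAZ enter the nucleus and act there with TEAD factors. Blood cells of the innate immune system carry receptors with immunoglobulin-like or lectin domains that either activate or restrain them. They crawl with the GTPase RAC2, which is switched on by exchange factors such as DOCK2 and VAV1. Both kinds of cell share large families of carriers, channels and secreted proteins, whose members are often divided between tissues.

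The gap between the fractions was wide. With edgeR's quasi-likelihood test, the collection day as a block and Benjamini-Hochberg adjustment, 4074 of the 14912 genes (27.3%) were higher in suspension at an adjusted p under 0.05. A further 4343 (29.1%) were lower, so that 56.4% passed in either direction. All 8417 of these kept 1 direction on the 3 days. Scaled to library totals instead of by TMM, the median log2 ratio of all genes shifted by -0.23, and 2898 genes were higher and 5512 lower. The share of higher genes among those that passed was thus 48.4% by TMM and 34.5% on library totals, and ratios below are relative to the TMM scale. Each fit that left out 1 day had 1 residual degree of freedom: 3662 genes were higher and 4038 lower without day 4, 1533 and 1942 without day 5, and 3828 and 4194 without day 6. Because each library is a sum over its cells, fewer cells of a type and less RNA per cell cannot be told apart in any of these ratios.

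**Figure D1:**
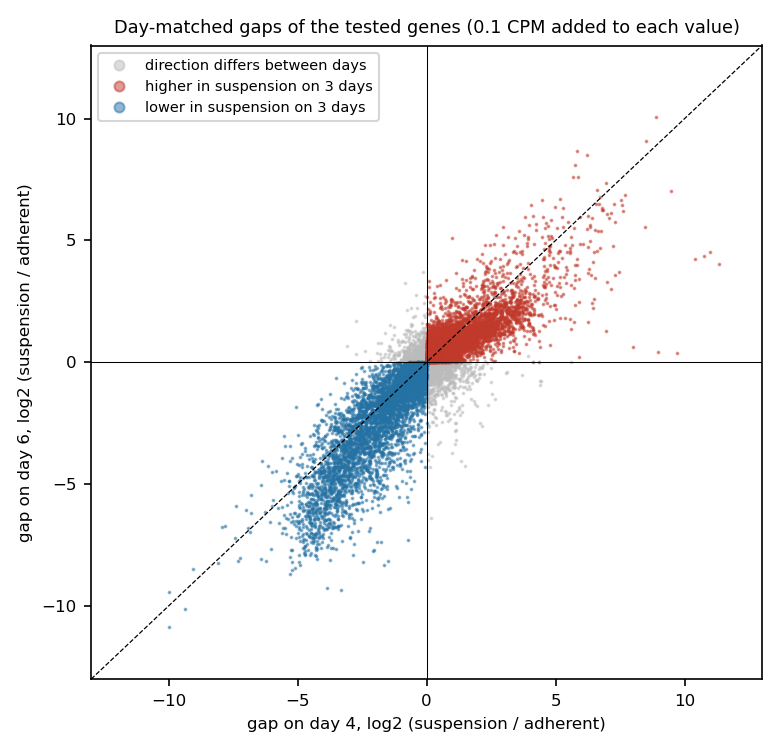
Log2 ratio of suspension over adherent CPM on day 4 (x axis) and on day 6 (y axis) for the 14912 tested genes, with 0.1 CPM added to each value; each dot is 1 gene and the dashed line marks equal gaps. Red and blue dots are the genes, 11771 in all, that were higher or lower in suspension on all 3 days, and grey dots changed side between days.

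Markers of other cell types moved with the fractions. The summed level of 12 endothelial markers was 41, 41.9 and 25.5 CPM over days 4 to 6 of suspension, in that order, and 967, 1956 and 776 in adherent cells. In suspension 11 of the 12 were lower and 1 was higher, with Emcn and Gpihbp1 at 3 counts or fewer there. The 8 fibroblast markers summed to 65.5, 60.00 and 17.6 and 1483, 2304 and 2299 CPM, with 8 of 8 lower. Markers of pericytes and smooth muscle summed to 104, 16.8 and 7.9 and 2729, 501 and 711 CPM (7 of 8 lower), those of epithelium to 272, 45.2 and 15.8 and 1562, 439 and 1067 (9 of 10 lower), and those of mesothelium to 14.9, 4.2 and 1 and 175, 61.3 and 44.5 (both tested markers of 4 lower). These 3 adherent sums were highest on day 4. The 7 pan-blood markers summed to 7494, 7689 and 8458 CPM in suspension and 808, 1281 and 2586 in adherent cells, the 9 macrophage markers to 18816, 17219 and 18992 and 2674, 3446 and 6971, and the 10 neutrophil markers to 26037, 33520.2 and 78621 and 268, 868 and 1125, with 7 of 7, 9 of 9 and 10 of 10 higher in suspension. The adherent libraries thus held blood cell transcripts on each day despite the sort, and most on day 6. Cd3e, Ms4a1 and Ncr1, 3 of the 8 lymphocyte markers, had 3 counts or fewer in each fraction. The part of cell make-up in the gaps below was not tested. Cdh5, which encodes VE-cadherin and is 1 of the 12 endothelial markers summed above, was the gene of the sort and is no finding. Sense counts per library ranged from 36451255 to 57784974, so that 3 counts equal 0.0594 to 0.0756 CPM.

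The tested genes were grouped into 65 families by symbol. Among 308 receptors and guidance molecules, 122 were higher in suspension and 125 lower. Of 389 transporters and channels, 161 were higher and 100 lower. Transcription factors leaned the other way, with 69 higher and 207 lower of 527, and secreted proteins more so, with 23 higher and 100 lower of 160. The transcription factor group included 345 C2H2 zinc finger proteins numbered Zfp, of which 36 were higher and 116 lower. It also included targets of TEAD factors, such as Ccn1, that are not transcription factors. Of 190 proteins that work inside the cell on its skeleton and signals, 54 were higher and 83 lower. Against the background of 27.3% and 29.1%, the transporters therefore had a larger share of higher genes and the secreted proteins a larger share of lower ones. The counts of each family below are to be read against these shares of all genes. Within the main families the called member with the highest mean CPM on each side was named by rule, and other genes named were chosen after their values were seen. These are descriptions of the lists, since the families were chosen with earlier results of these data known. In what follows, levels are CPM on the TMM scale in the order day 4, day 5, day 6, ratios are log2 of suspension over adherent ± SE, and adjusted p-values come from the edgeR test above. An unpaired fit is one without the replicate block, in which single libraries were left out. A gene with no overlap had all 3 suspension values above, or all 3 below, its 3 adherent values, and this held for each gene named as higher or lower unless stated. The share of all tested genes with no overlap was not counted, so a lack of overlap sets no named gene apart.

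**Figure D2:**
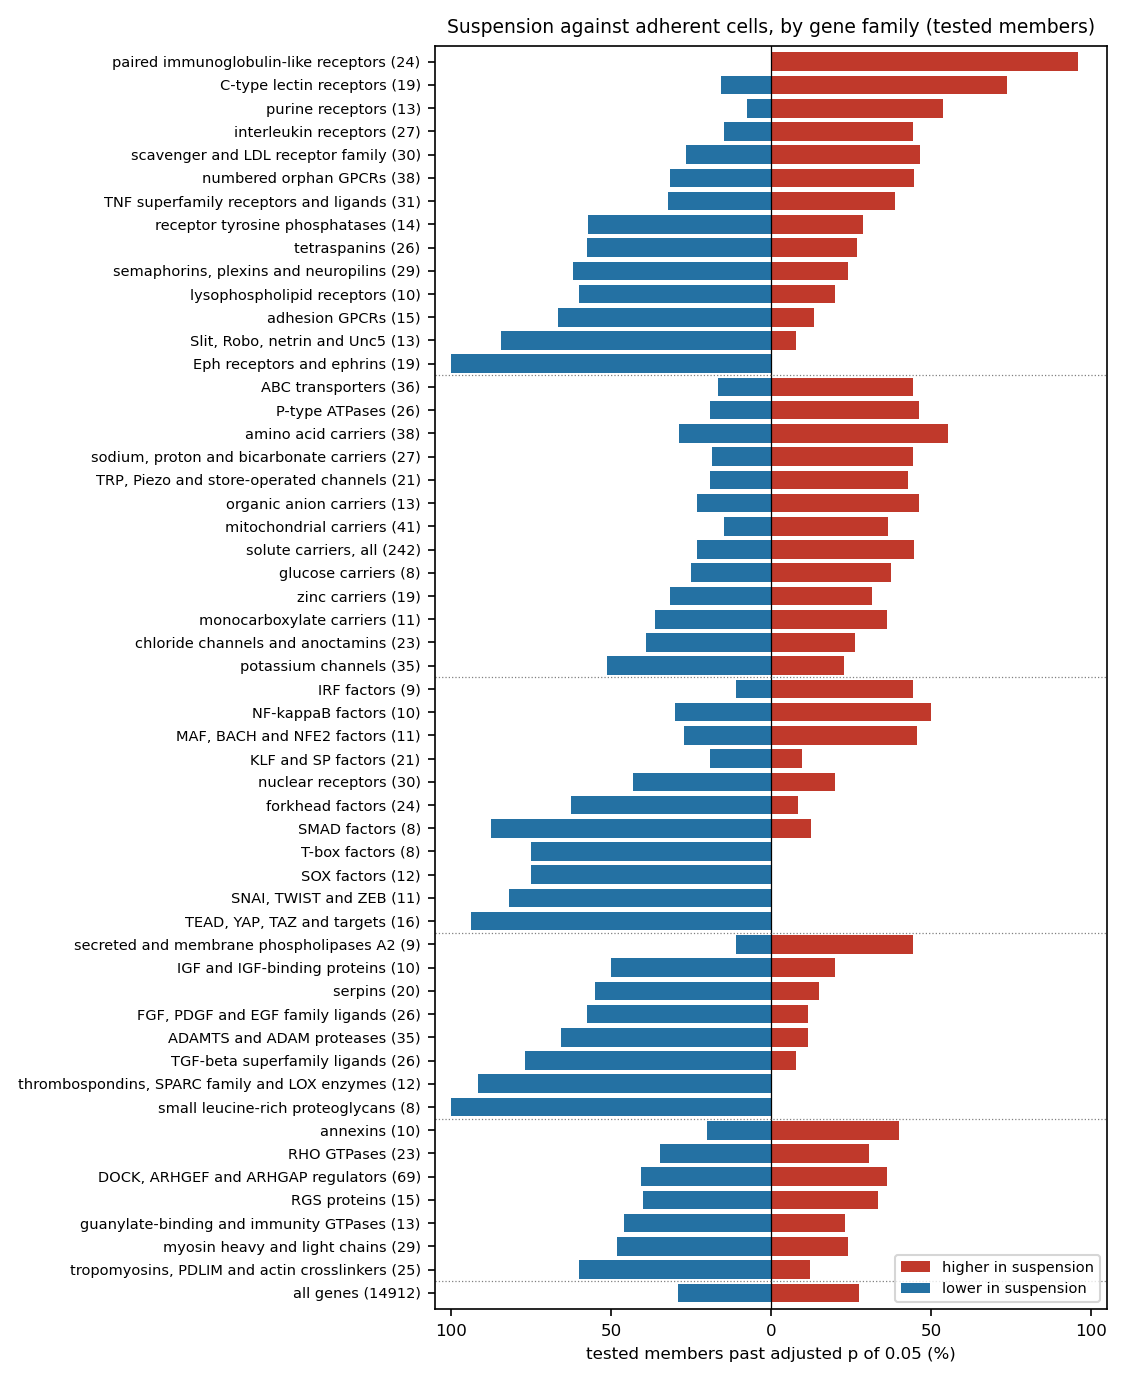
Share of tested members (x axis, %) that were higher (red, to the right) or lower (blue, to the left) in suspension at an adjusted p under 0.05. Families with at least 8 tested members are shown, with the number tested in brackets. The C2H2 zinc finger proteins numbered Zfp (345 tested, 36 higher and 116 lower) are left out. Eph receptors and ephrins (19 of 19 lower) and small leucine-rich proteoglycans (8 of 8 lower) stand at 1 end and paired immunoglobulin-like receptors (23 of 24 higher) at the other, with all genes in the bottom row.

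Eph receptors and ephrins, which guide cells by contact, were lower in floating cells. Eph receptors are kinases that read ephrins on touching cells, and 19 of 19 tested members of that family were lower (12 without day 5), with a median log2 ratio of -3.49 against 0.00 for all genes. Efnb2, the ephrin of arteries (ENSMUSG00000001300, chromosome 8, 8617434 to 8661242), stood at 4.65, 2.05 and 1.82 CPM in suspension and 33.3, 33.9 and 22.4 in adherent cells, a log2 ratio of -3.49 ± 0.28. Its venous partner Ephb4 had 0.823, 0.524 and 0.178 CPM in suspension and 13.7, 17.6 and 10.9 in adherent cells (log2 ratio -4.91 ± 0.41). The highest suspension value of either gene was well under its lowest adherent value. Members known from other tissues were lower too: Ephb2 was at 2.93, 2.53 and 1.8 CPM in suspension and 25.3, 22.7 and 17.8 in adherent cells, and Epha3 at 0.436, 0.238 and 0.297 CPM in suspension and 8.42, 12.6 and 22.2 in adherent cells, with adjusted p-values of 0.0013 to 0.00195 over these 4 genes.

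Slit, Robo, netrin and Unc5 proteins, a second guidance system, had 11 lower members of 13 (6 without day 5). The secreted ligand Slit2 was at 2.62, 1.33 and 0.554 CPM in suspension and 26.4, 24.4 and 35.4 in adherent cells, with a log2 ratio of -4.41 ± 0.57 (adjusted p = 0.00443). Unc5b, a netrin receptor of endothelium, was at 1.14, 1.26 and 0.356 CPM in suspension and 32.4, 31.3 and 10.6 in adherent cells (log2 ratio -4.77 ± 0.14, adjusted p = 0.0013). The exception was Ntng2, a membrane-anchored netrin-G, with 0.363, 0.81 and 0.911 CPM in suspension and 0.115, 0.302 and 0.256 in adherent cells (log2 ratio 1.62 ± 0.40, adjusted p = 0.0258), a call that was lost without day 4 or 5 or 6 and in the unpaired fit lacking suspension day 5 or 6 or adherent day 4 or 5 or 6 (adjusted p between 0.0595 and 0.144).

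Semaphorins, plexins and neuropilins lay on both sides. Of 29 tested, 18 were lower and 7 higher (4 higher without day 5). Sema3a, a secreted class 3 semaphorin (ENSMUSG00000028883, chromosome 5, 13125414 to 13602565), fell from 172, 199 and 117 CPM in adherent cells to 7.24, 9.67 and 1.88 in suspension, a log2 ratio of -4.92 ± 0.39. The membrane semaphorins Sema5a and Sema6a were lower as well, by log2 ratios of -4.64 ± 0.61 and -5.25 ± 0.25. Sema4a and Sema4d, class 4 semaphorins of leukocytes, went the other way. Sema4a rose from 1.02, 2.14 and 1.68 to 25.2, 27.4 and 33.9 CPM (log2 ratio 4.20 ± 0.24) and Sema4d from 1.87, 4.31 and 5.45 to 23.1, 26.9 and 29 (log2 ratio 2.87 ± 0.28). Among the receptors, Plxnd1, the plexin of developing vessels, was lower (-1.61 ± 0.24), whereas Plxnc1, a plexin of myeloid cells, was higher (2.28 ± 0.24). The 7 genes had adjusted p-values of 0.0013 to 0.00626. Nrp2, a co-receptor for semaphorins and VEGF-C, was higher at 115, 121 and 112 CPM in suspension and 58.7, 74.6 and 85.4 in adherent cells (log2 ratio 0.69 ± 0.14, adjusted p = 0.0147), but the call was lost without day 5 and on library totals (adjusted p between 0.0515 and 0.104).

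Paired immunoglobulin-like receptors of leukocytes, in which activating and inhibitory members read similar ligands, formed the opposite pole. Of 24 tested, 23 were higher in suspension and 0 lower, with a median log2 ratio of 2.96. Sirpa, which reads the CD47 signal on healthy cells (ENSMUSG00000037902, chromosome 2, 129592835 to 129632228), was at 292, 314 and 315 CPM in suspension and 42.5, 45.4 and 100.4 in adherent cells, a log2 ratio of 2.41 ± 0.28. Pirb was at 262, 284 and 379 CPM in suspension and 29.1, 37.6 and 81.7 in adherent cells (2.77 ± 0.22), and the sialic acid receptor Siglece at 11.3, 14.2 and 24.7 CPM in suspension and 0.323, 0.302 and 1.07 in adherent cells (4.99 ± 0.27). Suspension levels of these 3 genes lay well above adherent ones on each day, with adjusted p-values of 0.0013 to 0.00351. Adherent levels of Sirpa and Pirb were highest on day 6, the day on which adherent pan-blood markers were highest. Many members of this family (Pira and Pirb, Lilr, Pilr, Cd300) have near-identical copies, among which reads could be split, so that single members are less certain than the family.

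C-type lectin receptors, which bind sugars of microbes and of damaged cells, had 14 higher and 3 lower of 19 (6 higher without day 5, and 9 in the unpaired fit lacking suspension day 4 or adherent day 5). Clec4d was at 211, 159.98 and 237 CPM in suspension and 44.6, 46.2 and 93.6 in adherent cells (log2 ratio 1.79 ± 0.20), and Clec12a, an inhibitory receptor of granulocytes and monocytes, at 62.3, 72.7 and 117 CPM in suspension and 0.623, 2.42 and 6.59 in adherent cells (5.09 ± 0.53). Clec5a had a ratio of 3.99 ± 0.43. Clec1a, a lectin of endothelium, was on the other side, with 0.194, 0.381 and 0.337 CPM in suspension and 11.5, 24.7 and 7.15 in adherent cells (-5.41 ± 0.41). For these 4 genes the adjusted p was 0.0017 to 0.00313.

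Receptors for lipids and nucleotides were split between the fractions by subtype. Sphingosine 1-phosphate, which guides blood cells out of tissues and tightens vessels, had 4 tested receptors. S1pr1, the receptor of vessels and lymphocytes, was lower, at 3.37, 3.03 and 3.11 CPM in suspension and 36.9, 55.7 and 20.1 in adherent cells (log2 ratio -3.45 ± 0.33), and so was S1pr3 (-4.96 ± 0.45). S1pr4, a receptor of blood cells (ENSMUSG00000044199, chromosome 10, 81497747 to 81500132), was higher at 9.08, 11.1 and 22.1 CPM in suspension and 0.646, 2.27 and 0.862 in adherent cells (3.55 ± 0.53), while S1pr2 was not called, with 14.6, 15.5 and 13.9 CPM in suspension and 17.3, 16.7 and 15.7 in adherent cells (adjusted p = 0.218); on library totals it was lower, by a log2 ratio of -0.41 (adjusted p = 0.0318). Lysophosphatidic acid receptors followed the same division: Lpar1 was lower at 4, 3.76 and 2.81 CPM in suspension and 29.8, 35.6 and 74.4 in adherent cells (-3.61 ± 0.42), and Lpar4 and Lpar6 were lower, whereas Lpar5 was higher, with 0.46, 0.762 and 0.475 CPM in suspension and 0.115, 0.201 and 0.0932 in adherent cells (2.05 ± 0.44). The call of Lpar5 was lost without day 5 or 6 and in the unpaired fit lacking suspension day 5 (adjusted p between 0.0537 and 0.117). Adjusted p-values of S1pr1, S1pr3, S1pr4, Lpar1 and Lpar5 were 0.00215 to 0.0171.

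Purine receptors leaned to the floating cells, with 7 higher and 1 lower of 13 (2 lower in the unpaired fit lacking adherent day 4). Their called share in either direction, 61.5%, was near the 56.4% of all tested genes. P2rx4, an ATP-gated channel, was at 93.8, 98.4 and 101 CPM in suspension and 34.6, 43.4 and 58.2 in adherent cells (log2 ratio 1.14 ± 0.15), and P2ry13, a receptor for ADP, at 24.4, 27 and 26 CPM in suspension and 2.45, 3.65 and 6.73 in adherent cells (2.70 ± 0.31). P2ry6, the receptor for UDP, had a ratio of 1.59 ± 0.19. The adenosine receptor Adora2a was the lower member, with 0.266, 0.286 and 0.099 CPM in suspension and 1.87, 4.63 and 2.45 in adherent cells (-3.76 ± 0.47). Adhesion GPCRs, long receptors that hold on to neighbours or matrix, leaned to attached cells, with 10 lower and 2 higher of 15 (1 higher without day 4 or 5 or in the unpaired fit lacking suspension day 5 or 6 or adherent day 4). Adgrl4, an orphan receptor of vessels, was at 0.823, 0.5 and 0.099 CPM in suspension and 23.1, 42.1 and 14.5 in adherent cells (-5.90 ± 0.48), and Adgrl3, a latrophilin, at 1.07, 2.48 and 1.72 CPM in suspension and 23.5, 49.1 and 52 in adherent cells (-4.56 ± 0.17). Adgrl2, the lower member with the highest mean CPM, differed less, with 40.9, 41 and 34.9 CPM in suspension and 61.1, 102 and 85.8 in adherent cells (-1.06 ± 0.18), and its call was lost without day 5 (adjusted p = 0.0713). Adgre1, which encodes the macrophage antigen F4/80, was higher at 174, 135 and 131 CPM in suspension and 22.8, 24.4 and 49.6 in adherent cells (2.27 ± 0.33). Over the 8 genes adjusted p-values ran from 0.0013 to 0.00915.

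Cytokine receptors were divided even within single ligand systems. For interleukin 1, the signalling receptor Il1r1 (ENSMUSG00000026072, chromosome 1, 40225080 to 40317257) was lower in suspension, at 6.47, 3.79 and 1.43 CPM in suspension and 58.4, 45.1 and 44.1 in adherent cells (log2 ratio -3.85 ± 0.40, adjusted p = 0.00276). The decoy receptor Il1r2, which binds the cytokine without signalling, was higher, at 72.5, 92.5 and 137 CPM in suspension and 2.7, 8.79 and 12 in adherent cells (3.86 ± 0.33, adjusted p = 0.00195). Neither pair of groups overlapped. Of 27 interleukin receptor genes, 12 were higher (5 without day 5) and 4 lower (7 in the unpaired fit lacking either library of day 4). Their called share of 59.3% was near the 56.4% of all tested genes. Il10ra, the specific chain of the interleukin 10 receptor, had a ratio of 2.55 ± 0.25, and Il18rap, a chain of the interleukin 18 receptor, 3.79 ± 0.36. Il4ra was called at a small ratio of 0.49 ± 0.10 (adjusted p = 0.0153), with 122, 136 and 174 CPM in suspension and 96.6, 94.6 and 115 in adherent cells. That call was lost without day 5, in the unpaired fit lacking suspension day 5 or 6 or adherent day 4 or 5 and on library totals (adjusted p between 0.0825 and 0.142).

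In the TNF superfamily 12 of 31 tested members were higher and 10 lower (11 and 13 on library totals, 6 lower without day 5). Tnfrsf12a, the receptor for TWEAK, was lower at 11.1, 4.86 and 4.87 CPM in suspension and 128, 52.8 and 31.8 in adherent cells (log2 ratio -3.23 ± 0.21). Its ligand Tnfsf12 was higher at 75.1, 74.9 and 72.1 CPM in suspension and 34, 44.5 and 56.9 in adherent cells (0.74 ± 0.18, adjusted p = 0.0223), so that receptor and ligand lay on opposite sides. The ligand's call was lost without day 5, in the unpaired fit lacking suspension day 5 or adherent day 5 and on library totals (adjusted p between 0.0531 and 0.121), and its reads cannot be told from those of the overlapping annotated transcript Tnfsfm13. Of the receptors for TNF itself, Tnfrsf1b was higher at 45.3, 43.2 and 37.4 CPM in suspension and 7.68, 9.5 and 15.7 in adherent cells (2.0 ± 0.28), while Tnfrsf1a was not called, with 106, 104 and 113 CPM in suspension and 110.3, 159 and 158 in adherent cells (-0.38 ± 0.14, adjusted p = 0.0721). Tnfrsf1a was called lower on library totals, with DESeq2's Wald test, with a filter of 10 CPM, without genes over 1% of counts, and without day 4 or its adherent library (adjusted p between 0.00402 and 0.0481). Tnfrsf13b, a receptor for BAFF and APRIL best known from B cells, was higher at 41.9, 41.2 and 49 CPM in suspension and 5.05, 5.59 and 9.71 in adherent cells (2.75 ± 0.18), and lymphotoxin beta (Ltb) at 13.6, 18.2 and 40.8 CPM in suspension and 0.877, 0.806 and 0.559 in adherent cells (4.85 ± 0.50). Adjusted p-values of Tnfrsf12a, Tnfrsf1b, Tnfrsf13b and Ltb were 0.00148 to 0.0056.

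Tetraspanins, which organise patches of the membrane, had 7 higher and 15 lower members of 26. Cd9 was at 1163, 986 and 632 CPM in suspension and 149, 234 and 175 in adherent cells (log2 ratio 2.30 ± 0.26), Cd37 at 65, 62.3 and 86.1 CPM in suspension and 8.72, 11 and 16.2 in adherent cells (2.60 ± 0.14) and Tspan32 at 50.8, 60.2 and 61.4 CPM in suspension and 2.98, 7.03 and 11.6 in adherent cells (3.17 ± 0.36). All 3 were higher in every suspension library than in any adherent one. On the lower side stood Tspan6 at 2.81, 1.43 and 0.119 CPM in suspension and 80.4, 73 and 36.2 in adherent cells (-5.82 ± 0.62) and Cd151, a partner of laminin-binding integrins, with a ratio of -1.55 ± 0.13. Cd81 was lower by -1.16 ± 0.14 (303, 297 and 269.6 CPM in suspension and 559, 769 and 623 in adherent cells), with the call lost without day 5 (adjusted p = 0.0501). Adjusted p-values of these 6 genes were 0.0013 to 0.00371. Uptake receptors of the scavenger and LDL receptor families had 14 higher and 8 lower of 30 (8 higher without day 5 or in the unpaired fit lacking suspension day 5). Lrp12 was at 80.9, 94.6 and 88.8 CPM in suspension and 15.1, 20.1 and 32.9 in adherent cells (2.03 ± 0.23, adjusted p = 0.00318), and Mrc2, a collagen uptake receptor of connective tissue, at 2.08, 1.72 and 0.376 CPM in suspension and 32.4, 36.9 and 31 in adherent cells (-4.77 ± 0.51, adjusted p = 0.00299).

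**Figure D3:**
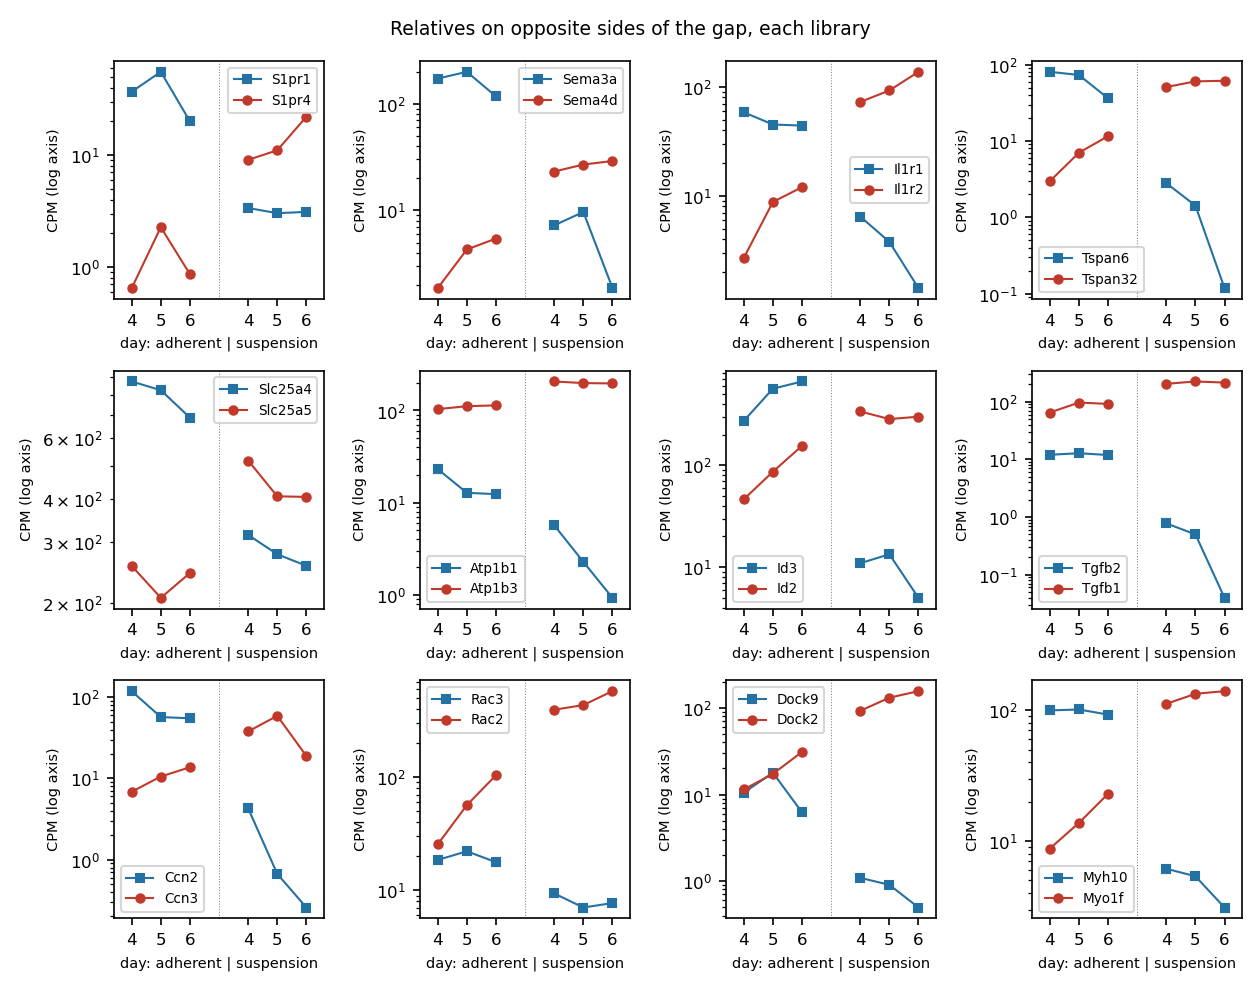
CPM on a log axis (y axis) in each of the 6 libraries for 12 pairs of related genes, with adherent libraries of days 4, 5 and 6 on the left of each panel and suspension libraries on the right; each point is 1 library, and lines join days. In each pair the gene in red was higher and the gene in blue lower in suspension, as in S1pr4 and S1pr1, Il1r2 and Il1r1 or Rac2 and Rac3.

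Carriers for nutrients were more often higher in floating cells than in attached ones. Of 242 tested solute carriers, 108 were higher and 56 lower (53 and 23 without day 5). Amino acid carriers had 21 higher and 11 lower of 38 (11 and 7 without day 5). Slc6a6, the taurine carrier (ENSMUSG00000030096, chromosome 6, 91684053 to 91759066), was at 424, 478 and 413 CPM in suspension and 80.8, 89.1 and 125 in adherent cells (log2 ratio 2.18 ± 0.18). The neutral amino acid carriers Slc43a2 and Slc7a8 had ratios of 2.08 ± 0.19 and 2.0 ± 0.16. Slc36a1, which moves small amino acids with protons and also sits on lysosomes, was at 70.7, 72.5 and 60.8 CPM in suspension and 11.7, 16.2 and 21.4 in adherent cells (2.09 ± 0.24). Sodium-coupled carriers of system A were on the other side: Slc38a4 was at 1.31, 0.715 and 0.099 CPM in suspension and 28.1, 17.4 and 17.2 in adherent cells (-5.13 ± 0.59), and Slc38a2 had a ratio of -0.77 ± 0.10, with its call lost without day 5 (adjusted p = 0.059). The 6 genes had adjusted p-values of 0.00185 to 0.00445.

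Carriers of other families lay on both sides. Slc15a3, a lysosomal carrier of histidine and small peptides, was at 103, 113 and 95.4 CPM in suspension and 10.1, 13.2 and 22.4 in adherent cells (log2 ratio 2.84 ± 0.29). Slc11a1, which removes iron and manganese from phagosomes, was at 151, 132 and 143 CPM in suspension and 26.3, 31.7 and 51.6 in adherent cells (2.01 ± 0.23), and the nucleoside carriers Slc29a1 and the lysosomal Slc29a3 had ratios of 1.57 ± 0.13 and 1.17 ± 0.13. Among organic anion carriers, Slco2b1 was higher (21.2, 25.1 and 18.7 CPM in suspension and 1.75, 3.5 and 3.91 in adherent cells) and Slco3a1 lower (9.13, 8.27 and 6 CPM in suspension and 44.5, 59.5 and 47.4 in adherent cells). Slc16a3, an exporter of lactate, was higher (1.62 ± 0.16). Slc12a2, which brings sodium, potassium and chloride into cells, was lower at 6.47, 4.81 and 5.39 CPM in suspension and 26.2, 32.5 and 30.1 in adherent cells (-2.42 ± 0.18). For these 8 genes the adjusted p was 0.00148 to 0.00333. The glucose carrier Slc2a1 was not called, with 25.2, 24 and 25.6 CPM in suspension and 34.5, 36.6 and 24.8 in adherent cells (adjusted p = 0.132). It was lower on library totals (adjusted p = 0.0297), without day 6 (adjusted p = 0.0161) and in the unpaired fit lacking adherent day 6 (adjusted p = 0.00734).

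In the mitochondrion, 2 forms of the carrier that exchanges ADP for ATP were divided. Slc25a4 (ENSMUSG00000031633, chromosome 8, 46206797 to 46211284), the form of heart, muscle and other differentiated tissues, was at 315, 277 and 256 CPM in suspension and 875, 825 and 688 in adherent cells, a log2 ratio of -1.49 ± 0.11 (adjusted p = 0.0016). Slc25a5, the form of dividing cells, was at 517, 407 and 406 CPM in suspension and 256, 207 and 244 in adherent cells (0.91 ± 0.11, adjusted p = 0.00394), with the call lost without day 5 (adjusted p = 0.0611). All 3 suspension values lay below the adherent ones for the first gene and above them for the second. The mitochondrial carriers as a family had 15 higher and 6 lower of 41, a split that turned to 7 and 9 on library totals and fell to 3 and 2 without day 5. Their called share of 51.2% was below the 56.4% of all tested genes. In the unpaired fits lacking any 1 suspension library or adherent day 5, 8 or 9 were higher. Tested against a 2-fold difference, 1 was higher and 2 were lower.

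ATP-driven pumps were divided in the same way. ABC transporters had 16 higher and 6 lower members of 36 (9 and 3 without day 5). With 61.1% called, they were near the 56.4% of all tested genes. Abcg1, which exports cholesterol, was at 69.98, 59.5 and 41.8 CPM in suspension and 5.21, 9.17 and 8.69 in adherent cells (log2 ratio 2.89 ± 0.32), and Abca13, a very large lipid transporter, at 10.4, 14.3 and 27.8 CPM in suspension and 0.0692, 0.479 and 0.349 in adherent cells (5.90 ± 0.45). Abcc5, an exporter of cyclic nucleotides, was called higher at 42.7, 42.8 and 39 CPM in suspension and 18.3, 24.1 and 33.6 in adherent cells (0.75 ± 0.21), but the call was lost without day 4 or 5, in the unpaired fit lacking suspension day 4 or 5 or adherent day 5, on library totals and with a filter of 10 CPM (adjusted p between 0.072 and 0.169). Abcg2, the pump behind the side population of stem cells, was called lower at 18.9, 17 and 12.7 CPM in suspension and 22.5, 23.1 and 19.2 in adherent cells (-0.43 ± 0.12), with the call lost without day 5 or 6, in the unpaired fit lacking suspension day 4 or 5 or 6 or adherent day 4 or 5 or 6 and without the replicate block alone (adjusted p between 0.0561 and 0.206). Abca1, the partner of Abcg1 in cholesterol export, was not called; its suspension values of 15.4, 18.5 and 20.04 CPM lay within the adherent range of 10.5, 28.3 and 49.2, and it was lower without day 4 (log2 ratio -0.95, adjusted p = 0.0341) and in the unpaired fit lacking adherent day 4 (-1.11, adjusted p = 0.0152). Adjusted p-values of Abcg1, Abca13, Abcc5 and Abcg2 were 0.00172 to 0.0375.

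The beta chains of the sodium pump lay on opposite sides. Of P-type ATPases 12 were higher and 5 lower of 26 (3 lower without day 5). Atp1b3 was at 206, 198 and 196 CPM in suspension and 103, 111 and 114 in adherent cells (log2 ratio 0.87 ± 0.10) and Atp1b1, the beta chain of epithelia and other adhering cells, at 5.69, 2.29 and 0.931 CPM in suspension and 23.1, 12.8 and 12.4 in adherent cells (-2.70 ± 0.38). The call of Atp1b1 was lost in the unpaired fit lacking suspension day 5 (adjusted p = 0.0726). Atp2a3, a calcium pump of the endoplasmic reticulum in blood cells, rose from 0.6, 1.41 and 1.28 CPM in adherent cells to 9.35, 12.7 and 15.5 in suspension (3.56 ± 0.23), and Atp13a2, a lysosomal polyamine pump, from 27.4, 38.4 and 57.6 to 158, 201 and 189 (2.21 ± 0.20). Of the lipid flippases, Atp8b4 was higher (4.12 ± 0.43) and Atp8b1 lower (-4.17 ± 0.49). Over the 6 genes adjusted p-values ran from 0.00148 to 0.00528.

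Of potassium channels 18 were lower and 8 higher of 35 (10 and 3 without day 5; 5 higher in the unpaired fit lacking suspension day 5). With a filter of 10 CPM the split turned, to 4 higher and 1 lower. Kcnj8, the pore of the ATP-sensitive channel of pericytes and smooth muscle (ENSMUSG00000030247, chromosome 6, 142564837 to 142571614), was at 1.04, 0.667 and 0.0396 CPM in suspension and 22.3, 35.7 and 33.9 in adherent cells (log2 ratio -5.89 ± 0.85, adjusted p = 0.00581), with the call lost without day 5 (adjusted p = 0.0521). Abcc9, the regulatory chain of that channel, was lower too, at 0.0242, 0.214 and 0.0198 CPM in suspension and 4.2, 5.24 and 3.91 in adherent cells (-5.88 ± 0.67, adjusted p = 0.0033). On the higher side Kcnk6 was at 19.1, 23.9 and 22.1 CPM in suspension and 3.65, 4.96 and 7.62 in adherent cells (2.06 ± 0.21, adjusted p = 0.00282) and Kcnk13 at 23.9, 22.9 and 26.6 CPM in suspension and 5.91, 6.98 and 17.2 in adherent cells (1.45 ± 0.31, adjusted p = 0.0164). The call of Kcnk13 was lost without day 4 or 5 and in the unpaired fit lacking suspension day 4 or 5 or 6 or adherent day 4 or 5 (adjusted p between 0.0527 and 0.107).

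Stim1 and Orai1, which let calcium into cells, were higher in suspension and the touch-sensitive channel Piezo2 was lower. Of TRP, Piezo and store-operated channels 9 were higher and 4 lower of 21 (5 higher without day 5). With 61.9% called, these channels were near the 56.4% of all tested genes. Stim1, the calcium sensor of store-operated entry, was at 43.3, 50.5 and 53.7 CPM in suspension and 14, 21.3 and 23.1 in adherent cells (log2 ratio 1.37 ± 0.12), and its channel Orai1 at 72.2, 81 and 91.7 CPM in suspension and 44.3, 55.9 and 42.3 in adherent cells (0.79 ± 0.14). Trpv2, a cation channel of macrophages, was at 76.4, 80.1 and 69.1 CPM in suspension and 10.7, 12.4 and 20.2 in adherent cells (2.43 ± 0.25). Piezo2, a mechanically gated channel, was at 0.412, 0.31 and 0.0792 CPM in suspension and 23.9, 41.8 and 20.1 in adherent cells (-6.78 ± 0.40), whereas its relative Piezo1 was not called, with 42, 37.6 and 37.3 CPM in suspension and 45.1, 47.6 and 32.5 in adherent cells (-0.08 ± 0.13, adjusted p = 0.625). The lysosomal chloride exchanger Clcn7 was higher (1.58 ± 0.18), and Clic4 and Clic5, of the CLIC family, were lower (-1.22 ± 0.09 and -3.92 ± 0.43). Adjusted p-values of Stim1, Orai1, Trpv2, Piezo2, Clcn7, Clic4 and Clic5 were 0.00139 to 0.0105.

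**Figure D4:**
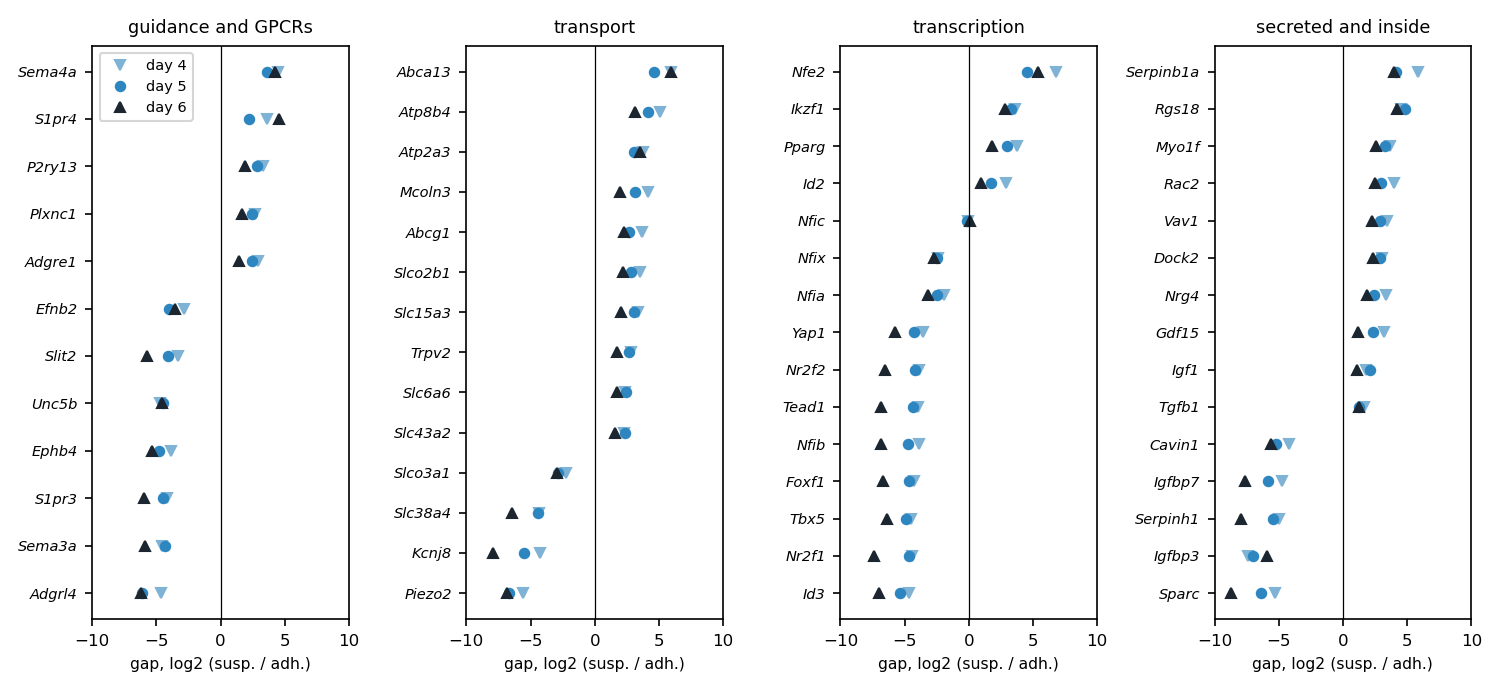
Day-matched gap, as log2 of suspension over adherent CPM with 0.1 CPM added to each (x axis), for named receptors, carriers, transcription factors and other proteins (y axis); each symbol is 1 day and the vertical line marks no gap. All genes but Nfic keep 1 side on the 3 days, and gaps of Nfib, Tead1 and Sparc were widest on day 6; reads of Foxf1 cannot be told from those of the overlapping gene Gm20388.

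Among transcription factors, most genes at the end point of the Hippo pathway were lower in floating cells. TEAD1 to TEAD4 bind DNA, YAP (Yap1) and TAZ (Wwtr1) are their co-activators, and Ccn1, Ccn2 and Amotl2 are textbook targets. Of 16 tested genes of this list 15 were lower and 0 higher, with a median log2 ratio of -4.36. Yap1 was at 2.23, 1.36 and 0.376 CPM in suspension and 27.2, 27.4 and 25.7 in adherent cells (log2 ratio -4.55 ± 0.52) and Wwtr1 at 6.64, 5.65 and 1.68 CPM in suspension and 94.7, 114 and 77.9 in adherent cells (-4.53 ± 0.38). Tead1 was at 7.48, 5.24 and 0.693 CPM in suspension and 115, 108 and 90.7 in adherent cells (-4.93 ± 0.70), and Tead2, Tead3 and Tead4 were lower too. The target Ccn1 (ENSMUSG00000028195, chromosome 3, 145646976 to 145649981), which encodes a secreted matrix protein, was at 7.02, 3.07 and 2.69 CPM in suspension and 158, 223 and 356 in adherent cells (-5.90 ± 0.62), and Amotl2, which binds YAP at cell junctions, at 2.32, 0.977 and 1.64 CPM in suspension and 25.5, 19.1 and 37.6 in adherent cells (-4.07 ± 0.27). In each of these 5 genes the highest suspension value was under the lowest adherent value, and adjusted p-values were 0.00148 to 0.00548. Lats1, a kinase that holds YAP back, was the member not called, at 16.4, 19.2 and 18.2 CPM in suspension and 23.3, 20.2 and 22.1 in adherent cells (adjusted p = 0.116); it was lower on library totals (adjusted p = 0.0278) and with a filter of 10 CPM (adjusted p = 0.0472).

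Promoters of this list were searched for GGAATG, the core of the TEAD motif, on both strands of the 300 bases from 250 before to 50 after each start in RefSeq's promoter table (GRCm38.p6). The letters occurred in 12 of 16 promoters of the lower members (75.0%), belonging to 10 of 12 genes with an entry, and in 14.7% of all 32851 promoters, 14.5% of those of lower genes and 11.1% of those of higher genes. Stretches of 90 bases upstream of a RefSeq start are shown for Ccn1 (chr3:145650041-145650130, - strand) and Amotl2 (chr9:102717697-102717786, + strand) because both genes are known targets and both hold the letters, in capitals as CATTCC on the strand of the gene. The Amotl2 stretch lies inside the gene as annotated here (ENSMUSG00000032531, chromosome 9, 102716672 to 102733418), since this RefSeq start is within it. The list was made partly of known TEAD targets and had 0 higher members to compare with. These shares therefore describe the list and say nothing about the gap. A match describes these letters only and is no evidence of binding.
Ccn1: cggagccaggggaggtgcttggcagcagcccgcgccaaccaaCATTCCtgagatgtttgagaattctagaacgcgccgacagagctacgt
Amotl2: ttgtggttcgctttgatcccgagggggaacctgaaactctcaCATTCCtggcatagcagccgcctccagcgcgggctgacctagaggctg

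Factors of mesenchyme and of the developing lung were lower together. Of SNAI, TWIST, ZEB, PRRX and TCF factors 9 were lower of 11, among them Snai1 at 2.62, 1.19 and 0.832 CPM in suspension and 45.7, 41.2 and 43.5 in adherent cells (log2 ratio -4.94 ± 0.36) and Zeb1 (-2.08 ± 0.17). Zeb2, a relative of Zeb1 that blood cells also use, was not called, with 251, 293 and 302 CPM in suspension and 168, 214 and 351 in adherent cells (adjusted p = 0.271). It was higher without day 6 (adjusted p = 0.0297) and in the unpaired fit lacking adherent day 6 (adjusted p = 0.024). T-box factors had 6 lower of 8, and Tbx2, Tbx3, Tbx4 and Tbx5, the T-box genes of lung mesenchyme, had ratios of -4.85 ± 0.43, -4.89 ± 0.50, -5.14 ± 0.47 and -5.37 ± 0.46. Of SOX factors 9 were lower of 12 and 0 higher, with Sox4, also a factor of blood progenitors, at 32.1, 21.9 and 12.9 CPM in suspension and 116, 150.3 and 126 in adherent cells (-2.64 ± 0.31). Forkhead factors had 15 lower and 2 higher of 24 (8 and 0 without day 5; 9 lower and 1 higher in the unpaired fit lacking suspension day 5 and 5 higher in that lacking adherent day 4; 1 higher on library totals). Foxf2, a factor of lung mesenchyme, was at 0.436, 0.643 and 0.0594 CPM in suspension and 17, 18.2 and 20.4 in adherent cells (-5.75 ± 0.66), and Foxp1 had a ratio of -0.95 ± 0.10, with reads that cannot be told from the overlapping gene Gm20696. Foxn2 was higher at 22.9, 26.5 and 27.1 CPM in suspension and 14.2, 13.6 and 16.6 in adherent cells (0.78 ± 0.11), with the call lost without day 5 (adjusted p = 0.0652). Adjusted p-values of these 10 called genes were 0.00164 to 0.00562.

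Nuclear factor I had 3 lower members of 4. Nfib, needed for lung maturation (ENSMUSG00000008575, chromosome 4, 82290173 to 82705750), fell from 188, 227 and 309.6 CPM in adherent cells to 12.7, 8.53 and 2.63 in suspension, a log2 ratio of -5.10 ± 0.70. Nfia and Nfix had ratios of -2.55 ± 0.26 and -2.53 ± 0.11. Nfic did not follow its relatives, with 91.3, 91.2 and 91.7 CPM in suspension and 96.9, 98.8 and 85.3 in adherent cells and a ratio of -0.03 ± 0.09 (adjusted p = 0.792). ID proteins, which block bHLH factors, were divided. Id3 was lower at 10.9, 13.4 and 4.99 CPM in suspension and 274, 566 and 666 in adherent cells (-5.68 ± 0.58), and Id2 higher at 338, 285 and 300.4 CPM in suspension and 46.4, 86.5 and 155 in adherent cells (1.84 ± 0.40), with the call of Id2 lost without day 5 and in the unpaired fit lacking adherent day 5 (adjusted p between 0.0542 and 0.0885). Id1 was not called, with 63.5, 74.2 and 78.4 CPM in suspension and 69.4, 104 and 78.2 in adherent cells (adjusted p = 0.234, and 0.0334 on library totals). Adjusted p-values of Nfib, Nfia, Nfix, Id3 and Id2 were 0.0013 to 0.0176.

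Signal-carrying factors lay on both sides, between families and within them. SMAD factors, which carry TGF-beta and BMP signals, had 7 lower and 1 higher of 8 (4 lower without day 5), with Smad1 at 27.3, 28.6 and 24 CPM in suspension and 66.4, 89.3 and 63.8 in adherent cells (log2 ratio -1.44 ± 0.11) and Smad3 at 3.15, 3.69 and 3.31 CPM in suspension and 17, 23.6 and 22.6 in adherent cells (-2.63 ± 0.14). Smad2, the partner of Smad3, was called higher at 35.4, 34.6 and 35.9 CPM in suspension and 29.7, 26.2 and 25.8 in adherent cells (0.38 ± 0.10), a call that was lost without day 5 or 6, in the unpaired fit lacking suspension day 4 or 5 or 6 or adherent day 5, on library totals and with a filter of 10 CPM (adjusted p between 0.0646 and 0.268). STAT factors, which carry cytokine signals, had 6 higher and 0 lower of 7 (3 higher without day 5). Stat6 was at 47.8, 60.4 and 63.7 CPM in suspension and 28.9, 31.2 and 32.5 in adherent cells (0.88 ± 0.10). The member not called was Stat3, with 91.5, 102 and 100.4 CPM in suspension and 81, 96.7 and 109 in adherent cells (0.04 ± 0.10, adjusted p = 0.734). In the NF-kappaB family 5 were higher and 3 lower of 10 (2 and 2 without day 5). Rel was higher at 36.9, 42 and 38.5 CPM in suspension and 9.69, 10.05 and 12.6 in adherent cells (1.87 ± 0.13). Relb was lower at 7.29, 5.96 and 8.06 CPM in suspension and 18.1, 15.9 and 16.7 in adherent cells (-1.26 ± 0.13). The 6 called genes had adjusted p-values of 0.0013 to 0.0279.

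Nuclear receptors had 13 lower and 6 higher of 30 (2 higher without day 5). Nr2f2 (COUP-TFII), a factor of veins and mesenchyme, was at 6.9, 6.96 and 1.72 CPM in suspension and 103, 127 and 164 in adherent cells (log2 ratio -4.80 ± 0.64), and its relative Nr2f1 had a ratio of -5.44 ± 0.73. Pparg, which alveolar macrophages need, was higher at 39.5, 42 and 38 CPM in suspension and 2.88, 5.34 and 10.6 in adherent cells (2.84 ± 0.41). The thyroid hormone receptor Thra was lower at 10.2, 13.2 and 13.1 CPM in suspension and 29.2, 72.1 and 94.5 in adherent cells (-2.28 ± 0.29). Nr1h2, an oxysterol receptor, was called higher at 39.8, 41.8 and 45.5 CPM in suspension and 27.5, 34.5 and 35.2 in adherent cells (0.39 ± 0.10), but the call was lost without day 4 or 5, in the unpaired fit lacking suspension day 4 or 5 or 6 or adherent day 4 or 5, on library totals and with a filter of 10 CPM (adjusted p between 0.0521 and 0.221). Of KLF and SP factors 15 of 21 were not called. Klf13 was higher at 163, 192 and 217 CPM in suspension and 61.9, 86.4 and 118 in adherent cells (1.14 ± 0.13), and Klf12 lower at 0.387, 0.453 and 0.119 CPM in suspension and 3.46, 4.51 and 4.61 in adherent cells (-3.80 ± 0.52). Ikzf1 (Ikaros), a factor of blood, was higher at 60.2, 70.2 and 79.3 CPM in suspension and 4.98, 7.08 and 11 in adherent cells (3.25 ± 0.18), and so was Nfe2, a factor of megakaryocytes and erythroid cells, at 23.3, 27 and 36.6 CPM in suspension and 0.115, 1.08 and 0.769 in adherent cells (5.62 ± 0.55). For these 9 genes the adjusted p was 0.0013 to 0.0253.

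Most secreted growth factors were lower in suspension, with a few exceptions. Of 26 tested TGF-beta superfamily ligands and their antagonists 20 were lower and 2 higher. Among the TGF-betas themselves the isoforms were divided. Tgfb1 (ENSMUSG00000002603, chromosome 7, 25687002 to 25705077) was higher in suspension, at 205, 225 and 215 CPM in suspension and 65.1, 96.8 and 91.8 in adherent cells (log2 ratio 1.37 ± 0.13), whereas Tgfb2 was at 0.775, 0.5 and 0.0396 CPM in suspension and 12, 12.8 and 11.9 in adherent cells (-5.04 ± 0.74) and Tgfb3 had a ratio of -3.53 ± 0.24. Ltbp1, which anchors latent TGF-beta in the matrix, was lower at 5.79, 5.65 and 1.78 CPM in suspension and 101, 99.6 and 90.7 in adherent cells (-4.61 ± 0.39), and so was Fst (follistatin, an activin trap) at 29.3, 17.7 and 4.91 CPM in suspension and 369.5, 230.1 and 66.4 in adherent cells (-3.70 ± 0.10). The other higher member was Gdf15, a stress-induced hormone, at 268, 208 and 189.6 CPM in suspension and 29.1, 41.2 and 85.8 in adherent cells (2.23 ± 0.43), with the call lost without day 5 (adjusted p = 0.0796). Over the 6 genes adjusted p-values ran from 0.0013 to 0.0129.

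Of FGF, PDGF and EGF family ligands 15 were lower and 3 higher of 26. Fgf10, which drives budding of the lung, was at 0.291, 0.357 and 0.535 CPM in suspension and 4.36, 12.6 and 36.9 in adherent cells (log2 ratio -5.19 ± 0.47), and the heparin-binding factors Mdk and Ptn had ratios of -4.50 ± 0.45 and -5.96 ± 0.31, with Mdk at 11.9, 9.13 and 4.18 CPM in suspension and 147, 184 and 203 in adherent cells. Pdgfc was higher at 14.4, 14.8 and 21.5 CPM in suspension and 7.71, 8.59 and 9.88 in adherent cells (0.93 ± 0.13), and Nrg4, an ERBB4 ligand, at 12.5, 10.1 and 8.51 CPM in suspension and 1.15, 1.79 and 2.19 in adherent cells (2.62 ± 0.34). Insulin-like growth factor 1 (Igf1) was also higher, at 109, 172 and 189 CPM in suspension and 31.4, 39.8 and 89.7 in adherent cells (1.66 ± 0.23), whereas its receptor Igf1r was lower, with a ratio of -1.29 ± 0.09. Of the binding proteins, Igfbp7 was lower at 20.6, 8.05 and 1.21 CPM in suspension and 555, 471 and 254 in adherent cells (-6.02 ± 0.69), and Igfbp3 had a ratio of -6.80 ± 0.40. IGF and IGF-binding proteins as a family had 5 lower and 2 higher of 10, with 1 higher without the replicate block or without day 5 and 0 in the unpaired fit lacking suspension day 5 or 6 or adherent day 5. The call of Igf1 was lost in the unpaired fit lacking suspension day 5 or 6 or adherent day 5 (adjusted p between 0.0558 and 0.0777). Adjusted p-values of these 9 genes were 0.0013 to 0.00507.

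Proteins that build and trim the matrix had no higher member in several families. Of small leucine-rich proteoglycans 8 of 8 were lower, and of thrombospondins, SPARC proteins and lysyl oxidases 11 of 12. Sparc fell from 2208, 2742 and 1428 CPM in adherent cells to 56.4, 33.1 and 3.37 in suspension (log2 ratio -6.72 ± 0.86). Thbs1, which platelets and macrophages also make, was the member not called, with 639, 545 and 426 CPM in suspension and 395, 311 and 444 in adherent cells (0.48 ± 0.21, adjusted p = 0.108). It was higher without day 6 (0.76, adjusted p = 0.00855) and in the unpaired fit lacking suspension day 6 (0.60, adjusted p = 0.0437). ADAM and ADAMTS proteases had 23 lower and 4 higher of 35 (13 and 1 without day 5; 2 higher in the unpaired fit lacking suspension day 4 or 5). Adamts1 was at 4.21, 2.48 and 2.1 CPM in suspension and 34.8, 61.8 and 138 in adherent cells (-4.56 ± 0.67), whereas Adam8, a membrane protease of leukocytes, was higher at 226, 174 and 263 CPM in suspension and 54.8, 48.7 and 101 in adherent cells (1.75 ± 0.16). Serpins had 11 lower and 3 higher of 20 (5 higher without day 6, or in the unpaired fit lacking adherent day 6). Serpinh1, the chaperone of collagen, was at 27.4, 18.3 and 2.12 CPM in suspension and 855, 823 and 537 in adherent cells (-6.05 ± 0.76), and Serpinb1a, an inhibitor of neutrophil proteases, at 216, 270.2 and 466 CPM in suspension and 3.74, 15.4 and 29.2 in adherent cells (4.62 ± 0.46). Serpinb1a has close copies, among which its reads could be split. The 5 called genes had adjusted p-values of 0.00222 to 0.0059.

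Galectins, secreted lectins that bind galactose, and CCN proteins were divided within small families. Of 6 tested galectins 3 were higher, Lgals3, Lgals8 and Lgals9, with Lgals9 at 109.8, 111 and 121 CPM in suspension and 38.2, 53.1 and 59.8 in adherent cells (log2 ratio 1.20 ± 0.14, adjusted p = 0.00333) and Lgals8 at a ratio of 1.11 ± 0.12 (adjusted p = 0.00287). Lgals3 was at 4439.9, 3259 and 4649 CPM in suspension and 699.8, 969.5 and 2198 in adherent cells (1.83 ± 0.35, adjusted p = 0.012), with the call lost without day 5 and in the unpaired fit lacking adherent day 5 (adjusted p between 0.0655 and 0.0896). Lgals1 was lower at 2609, 1925 and 2283 CPM in suspension and 4950.1, 3883 and 2771 in adherent cells (-0.74 ± 0.20, adjusted p = 0.0343), with the call lost without day 4 or 5 and in the unpaired fit lacking suspension day 5 or 6 or adherent day 4 or 5 (adjusted p between 0.0626 and 0.306). Among CCN proteins Ccn2 (CTGF) was lower at 4.29, 0.667 and 0.257 CPM in suspension and 119, 56.9 and 55 in adherent cells (-6.05 ± 0.62, adjusted p = 0.00274). Ccn3 was higher at 37.9, 59 and 18.9 CPM in suspension and 6.85, 10.6 and 13.7 in adherent cells (1.82 ± 0.48, adjusted p = 0.0308), with the call lost without day 4 or 5 (adjusted p between 0.113 and 0.15).

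Inside the cell, switches of the actin skeleton were divided between the fractions. Rac2, the RAC of blood cells (ENSMUSG00000033220, chromosome 15, 78559167 to 78572783), rose from 25.5, 56.8 and 104 CPM in adherent cells to 396, 436 and 579 in suspension, a log2 ratio of 3.12 ± 0.33. Rac3 was lower at 9.4, 7.05 and 7.72 CPM in suspension and 18.6, 22.2 and 17.8 in adherent cells (-1.28 ± 0.17), and the widely used Rac1 was called at 364, 363 and 388 CPM in suspension and 297, 294 and 273 in adherent cells (0.37 ± 0.10), a call that was lost without day 5 or 6, in the unpaired fit lacking suspension day 4 or 5 or 6 or adherent day 5, on library totals, on either strand, without genes over 1% of counts and with a filter of 10 CPM (adjusted p between 0.0515 and 0.308). Rhoh, found in blood cells, had a ratio of 2.22 ± 0.32, and Rhoj, of endothelium, -5.0 ± 0.38. Rhoc was lower at 73.1, 71.4 and 76.3 CPM in suspension and 439.6, 471 and 261 in adherent cells (-2.36 ± 0.23), while Rhoa was not called, with 337, 339 and 407 CPM in suspension and 305, 306 and 298 in adherent cells (adjusted p = 0.129). For these 6 called genes the adjusted p was 0.00172 to 0.0369.

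Their regulators were divided likewise, with 25 higher and 28 lower of 69 (19 and 17 with a filter of 10 CPM). Of DOCK exchange factors, Dock2 was at 92.8, 132 and 157 CPM in suspension and 11.4, 17.3 and 31.1 in adherent cells (log2 ratio 2.76 ± 0.18), and Dock8, Dock10 and Dock11 had ratios of 2.27 ± 0.23, 2.82 ± 0.32 and 1.65 ± 0.19. Dock1 and Dock9 were lower, by ratios of -1.04 ± 0.11 and -3.74 ± 0.28. The exchange factor Vav1 (ENSMUSG00000034116, chromosome 17, 57279100 to 57328031) was at 73.2, 74.3 and 82.3 CPM in suspension and 6.6, 10.2 and 17.4 in adherent cells (2.85 ± 0.27), whereas Vav3 was not called, with 25.4, 32.1 and 38.4 CPM in suspension and 24.6, 27.3 and 17.3 in adherent cells (adjusted p = 0.162). Among GTPase-activating proteins Arhgap30 was higher at 108, 143 and 152 CPM in suspension and 9.76, 16.3 and 31.4 in adherent cells (2.96 ± 0.27), and Arhgap29, an endothelial partner of RAP1, was lower at 3.29, 2.41 and 1.84 CPM in suspension and 53.3, 79.5 and 50.7 in adherent cells (-4.61 ± 0.25). Arhgap5, the lower regulator with the highest mean CPM, had a ratio of -1.15 ± 0.09. Over the 10 called genes adjusted p-values ran from 0.0013 to 0.0033.

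The letters GAGGAAGT, a core that ETS factors of blood such as PU.1 prefer, were searched in the same promoters on both strands. They occurred in 3.2% of all 32851 promoters, in 4.74% of those of higher genes, 2.6% of those of lower genes and 2.9% of those of tested genes not called. Among higher tetraspanins they occurred in 4 of 11 promoters (36.4%), belonging to 4 of 7 genes, and among lower ones in 0 of 20. Among higher paired immunoglobulin-like receptors they occurred in 5 of 21 promoters (23.8%), belonging to 5 of 20 genes. Among higher DOCK, ARHGEF, ARHGAP and VAV genes they occurred in 3 of 34 promoters (8.82%), belonging to 2 of 20 genes, and among lower ones in 0 of 28. The families were chosen with earlier results of these data known, and a match is no evidence of binding. The paired receptor Cd300lf was also looked up and gave no stretch with the letters upstream of a start. Stretches of 90 bases upstream of a RefSeq start are shown for Vav1 (chr17:57279010-57279099, + strand) and Cd37 (chr7:45238840-45238929, - strand). This regulator and this tetraspanin, both named above, are shown because they hold the letters, which are in capitals. The letters lie on the strand of the gene in Vav1 and on the other strand, as ACTTCCTC, in Cd37. The Cd37 stretch lies inside the gene as annotated here (ENSMUSG00000030798, chromosome 7, 45233632 to 45239115), since this RefSeq start is within it.
Vav1: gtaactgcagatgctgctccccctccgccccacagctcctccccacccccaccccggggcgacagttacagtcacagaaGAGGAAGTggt
Cd37: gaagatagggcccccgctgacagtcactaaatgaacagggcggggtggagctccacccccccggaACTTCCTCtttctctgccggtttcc

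Motors, membrane coats and actin binding proteins were more often lower than higher. Of caveolins and cavins, which form the flask-shaped pits of endothelium and stroma, 4 were lower of 6 and 0 higher. Cav1 was at 4.79, 1.67 and 0.495 CPM in suspension and 64.9, 48.7 and 22.7 in adherent cells (log2 ratio -4.62 ± 0.39) and Cavin1 at 5.35, 2.41 and 1.5 CPM in suspension and 98.9, 94.6 and 79.4 in adherent cells (-5.05 ± 0.36), whereas Cav2 was not called, with 28.1, 16.1 and 16.1 CPM in suspension and 29.1, 29.4 and 16.6 in adherent cells (adjusted p = 0.237). Of myosins 14 were lower and 7 higher of 29 (6 lower without day 5, and 9 in the unpaired fit lacking either library of day 5). The class II heavy chain Myh10 was at 6.15, 5.39 and 3.11 CPM in suspension and 99.7, 101 and 92.6 in adherent cells (-4.38 ± 0.22), whereas its relative Myh9 was not called, with 324, 469 and 427 CPM in suspension and 407, 289.6 and 229 in adherent cells (adjusted p = 0.242). Myh9 was higher without day 4 (log2 ratio 0.80, adjusted p = 0.0135) and in the unpaired fit lacking adherent day 4 (0.65, adjusted p = 0.0369). Class I myosins of blood were higher, with Myo1f at 112, 133 and 139.8 CPM in suspension and 8.77, 13.8 and 23 in adherent cells (3.18 ± 0.24) and Myo1g at a ratio of 3.15 ± 0.27. Tropomyosins Tpm1, Tpm2 and Tpm4 were lower, by -3.59 ± 0.23, -4.84 ± 0.54 and -1.82 ± 0.23. Tpm3 was called higher at 387, 463 and 529 CPM in suspension and 345, 276 and 244 in adherent cells (0.68 ± 0.21), with the call lost without day 5 or 6, in the unpaired fit lacking suspension day 5 or 6 or adherent day 5, on library totals, with DESeq2's size factors, without genes over 1% of counts and with a filter of 10 CPM (adjusted p between 0.0529 and 0.219). Adjusted p-values of these 9 called genes were 0.0013 to 0.0474.

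Regulators of G protein signals gave further relatives on opposite sides. Of 15 tested RGS proteins 5 were higher and 6 lower. That split turned to 4 and 3 without day 5, and to 4 and 2 with a filter of 10 CPM. Of 13 guanylate-binding and immunity GTPases 3 were higher and 6 lower (1 and 5 without day 5). Rgs18, an RGS protein of platelets and myeloid cells, was at 17.9, 21.2 and 28.5 CPM in suspension and 0.669, 0.655 and 1.42 in adherent cells (log2 ratio 4.67 ± 0.20), and Rgs17 at 1.16, 2.07 and 0.455 CPM in suspension and 35, 42.3 and 22.5 in adherent cells (-4.90 ± 0.29). Gimap4 and Gimap6, GTPases of immunity known best from lymphocytes, were lower in floating cells, with Gimap6 at 0.726, 0.286 and 0.337 CPM in suspension and 13.4, 31.9 and 9.9 in adherent cells (-5.21 ± 0.56) and Gimap4 at 0.0242, 0.238 and 0 CPM in suspension and 21.4, 42 and 14.7 in adherent cells (-8.35 ± 0.54). Adherent levels of both Gimap genes were highest on day 5, as were the sums of endothelial markers and of fibroblast markers (2304 CPM, and 2299 on day 6). The 8 lymphocyte markers summed to between 7.37 and 18.3 CPM in suspension libraries and between 0.69 and 1.49 CPM in adherent ones. Which cells the Gimap reads came from was not tested. The 4 genes had adjusted p-values of 0.0013 to 0.00298.

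Outside all families and marker lists, the genes with the widest gaps and at least 20 CPM on average were these. Higher in suspension were Stfa2 and Stfa2l1, stefins that inhibit cysteine proteases, Cd177, a surface protein of neutrophils, and Asprv1, an aspartic protease. Stfa2 was at 365, 501 and 1829 CPM in suspension and 1.89, 11.7 and 17.8 in adherent cells (log2 ratio 6.54 ± 0.53), Cd177 at 23.6, 39.8 and 97.7 CPM in suspension and 0.115, 0.68 and 1.12 in adherent cells (6.45 ± 0.32) and Asprv1 at 29.8, 57.2 and 212 CPM in suspension and 0.0461, 1.74 and 1.72 in adherent cells (6.44 ± 0.68). Stfa2l1 had a ratio of 6.49 ± 0.53, and the Stfa genes are near-identical copies whose reads could be split. Suspension levels of all 4 were highest on day 6, as were the sums of neutrophil markers and of other blood cell lists, pan-blood and macrophage among them. Lower in suspension were Prss23, a secreted serine protease, with 0.896, 0.0953 and 0.0396 CPM in suspension and 74.8, 101 and 39.4 in adherent cells (-7.94 ± 0.77), and Ecscr, an endothelial surface protein, with 1.48, 0.643 and 0.198 CPM in suspension and 136, 190.4 and 79.2 in adherent cells (-7.61 ± 0.50). Plvap, which forms the diaphragms of capillary pores, had a ratio of -7.47 ± 0.45, and Apln, the peptide apelin, -6.98 ± 0.88. Adherent levels of these 4 were highest on day 5, as were the sums of endothelial markers and of fibroblast markers (2304 CPM, and 2299 on day 6). The part of either cell type in these levels was not tested. For these 8 genes the adjusted p was 0.0013 to 0.0042.

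Few gaps passed a test of change in size from day 4 to day 6. Fraction, day and their product were fitted with edgeR's quasi-likelihood test and Benjamini-Hochberg adjustment. Of 14912 genes 77 (0.516%) passed, 8 with a ratio rising with day and 69 with a falling one. Before adjustment, 2930 genes had a p under 0.05 in this test. With 2 residual degrees of freedom, few calls do not show that few gaps changed. Among the family genes, Pparg had day-matched log2 gaps of 3.73, 2.95 and 1.83 on days 4, 5 and 6, a change of -0.97 ± 0.11 per day, and Id2 gaps of 2.86, 1.72 and 0.95, a change of -0.96 ± 0.10, with the call of its gap lost without day 5 and in the unpaired fit lacking adherent day 5 (adjusted p between 0.0542 and 0.0885). For both genes the suspension levels given above stayed within a narrow range while the adherent levels rose on each day. The 2 receptors Cd300a and Cd300lf had changes of -0.99 ± 0.09 and -0.87 ± 0.09 per day, and the flippase Atp8b4 -1.01 ± 0.11. Over days 4 to 6 the adherent sums of pan-blood markers were 808, 1281 and 2586 CPM and those of macrophage markers 2674, 3446 and 6971, and their part in the changes of these 5 genes was not tested. On the other side of the gap, Tbx4 changed by -1.08 ± 0.11 and Tpm2 by -1.18 ± 0.13 per day, so that the log2 gap of these lower genes widened. All 7 genes had an adjusted p of 0.0485 in this test. The gap itself was called for Id2 and Cd300a, but that of Cd300a was lost without day 5 (adjusted p = 0.0629). No gene passed when any 1 suspension library was left out, with 1496, 2469 and 1044 genes at an unadjusted p under 0.05 without the libraries of day 4, 5 and 6. Without the adherent libraries of day 4, 5 or 6, the numbers rising and falling were 18 and 73, 148 and 711, and 2 and 83. On library totals they were 1 and 12.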

How the data were processed

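Whole-library RNA was measured in 6 libraries of cultured fetal mouse lung, 1 suspension and 1 adherent library on each of days 4, 5 and 6. The deposited tables hold raw read counts per gene for each library, in the layout of STAR's gene counts, with columns for either strand, sense and antisense. Per the submitters' processing notes, bcl2fastq, Cell Ranger, STARsolo and the mm10 build were used, with versions and roles not given in the sources used here. Reads were not collapsed to unique molecules in these tables, so that precision from counts covers counting error only. The 4 summary lines were left out of totals and tests: reads on no gene came to 17.7 to 18% in suspension and 24.9 to 26.3% in adherent libraries, and multimapping reads to 15 to 16.5% and 19.8 to 24.6%. Symbols came from GENCODE M21 for 30934 of 31053 identifiers, with 28 symbols shared between identifiers, and coordinates are those of mm10. Genes that overlap on 1 strand, and near-identical copies, could share reads.

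Sense counts were filtered with filterByExpr and scaled by TMM in edgeR 4.0.16 (R 4.3.3, limma 3.58.1). The gap was tested with edgeR's quasi-likelihood test with day as a block (2 residual degrees of freedom), and the change of the gap with day by the product of fraction and day (2 residual degrees of freedom), both with Benjamini-Hochberg adjustment at 0.05 over all 14912 genes. The days pair the libraries, since the labels give each day 1 library of each fraction. As a check of the pairing, deviations from the fraction means correlated at 0.318, 0.095 and 0.253 within days 4, 5 and 6 and at -0.285 to 0.022 across days.

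Families were all genes whose symbol matched a pattern, less 7 symbols that matched without being members. For 23 main families, the called member with the highest mean CPM that kept 1 direction was named on each side; outside families and marker lists, the 4 widest gaps on each side with a mean of at least 20 CPM were named. Families of at most 6 tested members could be described whole, and all other genes named were chosen after their values were seen. The members, families and lists were chosen with earlier results of these data known. Promoter sequences are RefSeq's (GRCm38.p6, 32851 promoters), searched by letters. Alternatives were scaling to library totals, DESeq2 1.42.0 (its size factors or its Wald test), other filters on low counts, reads on either strand, omission of genes over 1% of counts, a test against a 2-fold difference, no replicate block, and leaving out each day or each library.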

Additional observations from a re-analysis of the deposited data

Results flagged for a closer look

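The gap between suspension and adherent cells changed with day for 14 genes named in the text, by edgeR's test of fraction and day (adjusted p = 0.0485 for each). All values are changes of the log2 ratio per day. Ratios of Cd300a, Cd300lf, Il17ra, Pla2g7, Atp8b4, Pparg and Id2 were highest on day 4 and changed by -0.99, -0.87, -0.80, -0.74, -1.01, -0.97 and -0.96. Ratios below 0 widened for Adamts1 (-1.51), Adamts9 (-2.53), Tbx4 (-1.08) and Tpm2 (-1.18). For Lipg, an endothelial lipase, the ratio rose by 2.09 per day; its call as higher in suspension (adjusted p = 0.0485) was lost without day 5, in the unpaired fit lacking suspension day 6 or adherent day 5, on library totals, on either strand, without genes over 1% of counts and with a filter of 10 CPM (adjusted p between 0.0506 and 0.172). The call of the gap itself was also lost for Cd300a without day 5 (adjusted p = 0.0629), for Id2 without day 5 and in the unpaired fit lacking adherent day 5 (adjusted p between 0.0542 and 0.0885), for Pla2g7 without day 5 (adjusted p = 0.0604), for Adamts9 without day 5 (adjusted p = 0.0542) and for Il17ra without day 4 or 5, in the unpaired fit lacking suspension day 4 or 5 or 6 or adherent day 5 and on library totals (adjusted p between 0.053 and 0.129). Inhba, an activin chain, and Rgs2 were not called for the gap itself, and their day-matched log2 gaps were -1.81, -0.86 and 0.34 and 3.11, 0.80 and -0.41 on days 4, 5 and 6, changes of 1.08 and -1.75. Over all 14912 genes 8 rising and 69 falling ratios passed. None passed when any 1 suspension library was left out.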

How the results depend on the processing

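Without the replicate block, so that days were not paired, 4044 genes were higher and 4423 lower, within 1.5 times of the paired counts. Library totals, DESeq2's size factors, its Wald test, no filter, either strand and omission of genes over 1% of counts also gave counts within 1.5 times, with 2898 to 4114 higher and 4237 to 5512 lower. A 10 CPM filter left 8685 genes, of which 2400 were higher and 2692 lower, and a test against a 2-fold difference gave 1352 and 2379. Leaving out 1 day gave 1533 to 3828 higher and 1942 to 4194 lower, each with 1 residual degree of freedom and lowest without day 5. Leaving out 1 library without the replicate block gave 2924 to 4180 and 3678 to 4478. Of 130 family counts, 68 were over 1.5 times smaller without day 5, 64 with the 10 CPM filter, 51 with the 2-fold test and 8 on library totals; under the other alternatives at most 22 were. Of 201 called genes among those named or drawn, 29 lost the call without day 5, 10 on library totals and 1 without the replicate block; no called gene turned. Genes near 0 turned sign without being called. With 1 day or library left out, the Nfic gap ranged from -0.0942 to 0.0123, the Piezo1 gap from -0.2464 to 0.0496 and the Stat3 gap from -0.0696 to 0.1438. Piezo1 was at 0.0999 on either strand. Stat3 was at -0.1913 on library totals, -0.0983 with the 10 CPM filter and -0.0014 without genes over 1% of counts. For the change of the gap with day, rising and falling genes numbered 1 and 12 on library totals, 208 and 825 by DESeq2's Wald test, 159 and 847 with no filter, 15 and 99 with the 10 CPM filter, and 4 and 58 on either strand. With 1 library left out they ranged from 0 to 148 rising and from 0 to 711 falling. The cause of these differences was not tested. Depth limits genes under 3 counts, or 0.0594 to 0.0756 CPM.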
